A study of Xenopus tropicalis with 12 samples.

Results

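The genes bco1 and rarb were followed across 12 single-colour Agilent arrays, each of whole Xenopus tropicalis (frog) embryos 3 days after fertilization. bco1 encodes a carotene-cleaving oxygenase and rarb encodes retinoic acid receptor beta. Every probe whose accession is a RefSeq transcript of either gene was taken. There were 2 such probes among 32899, 1 per gene, each printed as 2 spots per array, and the genes are 2 of 4372 named genes with a tested probe. Both carry the word specific in their names, and both were among the 29168 probes that passed the filter on dim signal. The probe of bco1 carries the accession XM_002938140 and that of rarb carries XM_002932404. Both genes were picked because earlier results of these same arrays had shown bco1 higher in exposed embryos and rarb lower. Their levels and differences are therefore given as a description, without a test.

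The study set control embryos (C) against those given either of 2 naphthenic acid mixtures, named S1 and S2, with 4 arrays per group. Naphthenic acids are carboxylic acids found in petroleum, and the mixtures were separate lots of the same commercial product. No genetic change is named for any group, and the source of the embryos, the dose and the length of exposure are not given in the sources used here. The labels do not say whether the 4 samples of a group came from separate clutches or tanks, so the spread between arrays may be partly technical.

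Retinoic acid is made from carotenoids or from stored retinoids. BCO1 splits beta-carotene into retinal, alcohol dehydrogenases and retinol dehydrogenases interconvert retinol and retinal, and retinaldehyde dehydrogenases of the ALDH1A group oxidise retinal to retinoic acid. Retinoic acid binds receptors of the RAR family, which act on DNA as partners of RXR receptors. In vertebrate embryos this signal patterns the hindbrain, trunk and eye, and in mammals the RARB gene is itself a well-known target that retinoic acid switches on.

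The arrays lay on 3 slides of 4. Controls C-1, C-2 and the pair C-3 and C-4 lay on slides 1, 2 and 3 respectively. S1-1 was on slide 1, S1-2 and S1-3 on slide 2 and S1-4 on slide 3, and S2-1 and S2-2 were on slide 1, S2-3 on slide 2 and S2-4 on slide 3. Arrays differed in brightness. The 75th percentile of the processed intensity ran from 500 to 985 on control arrays, from 261 to 537 on S1 arrays and from 481 to 675 on S2 arrays. Levels below are therefore scaled, as the log2 intensity minus the log2 of the array's own 75th percentile, unless a sentence says otherwise. All pairs of arrays correlated at r = 0.977 to 0.992 across probes, which are not independent replicates.

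bco1 gave the lowest scaled log2 levels in controls and higher ones with both mixtures. The scaled log2 level of bco1 was 2.38, 2.33, 2.44 and 2.64 on control arrays C-1 to C-4. It was 3.46, 3.29, 3.19 and 2.97 on arrays S1-1 to S1-4. It was 3.95, 3.85, 3.65 and 3.00 on arrays S2-1 to S2-4. Every exposed array lay above every control array, while the S1 and S2 arrays overlapped because S2-4 was about as low as S1-4. The array S2-4 alone made the spread of the S2 group the widest of the 3.

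For bco1 the scaled log2 level averaged 2.45 ± 0.14 over the controls, 3.23 ± 0.21 over S1 and 3.61 ± 0.43 over S2 (SD, n = 4 each). The difference from control was 0.78 ± 0.19 (SE of the fit) in S1, a 1.72-fold higher signal. In S2 it was 1.17 ± 0.19, a 2.24-fold higher signal. These differences were 2.7 and 4.1 times the residual standard deviation of the probe between arrays of a group. Of all tested probes, 354 had a larger rise than bco1 in S1 and 154 in S2. The difference of S2 from S1 was 0.39 ± 0.19, or 1.3 residual standard deviations, with groups that overlapped.

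rarb showed the opposite direction and a smaller difference. The scaled log2 level of rarb was -1.95, -2.13, -1.99 and -2.18 on arrays C-1 to C-4. It was -2.50, -2.55, -2.65 and -2.33 on arrays S1-1 to S1-4. It was -2.29, -2.14, -2.29 and -2.31 on arrays S2-1 to S2-4. All S1 arrays lay below all control arrays. The S2 arrays lay between them, with S2-2 inside the control range and S2-4 just above S1-4.

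For rarb it averaged -2.06 ± 0.11 over the controls, -2.51 ± 0.13 over S1 and -2.26 ± 0.08 over S2 (SD, n = 4 each). The difference from control was -0.45 ± 0.10 (SE of the fit) in S1, where the signal stood at 0.732 of the control level, and -0.20 ± 0.10 in S2, where it stood at 0.87. In S1 the difference was 4.1 residual standard deviations and in S2 it was 1.8. In S1, 1514 tested probes were lowered by more than rarb was, and in S2 this held for 8250. The difference of S2 from S1 was 0.25 ± 0.10, with arrays that did not overlap but nearly touched, at -2.33 for S1-4 and -2.31 for S2-4.

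**Figure D1:**
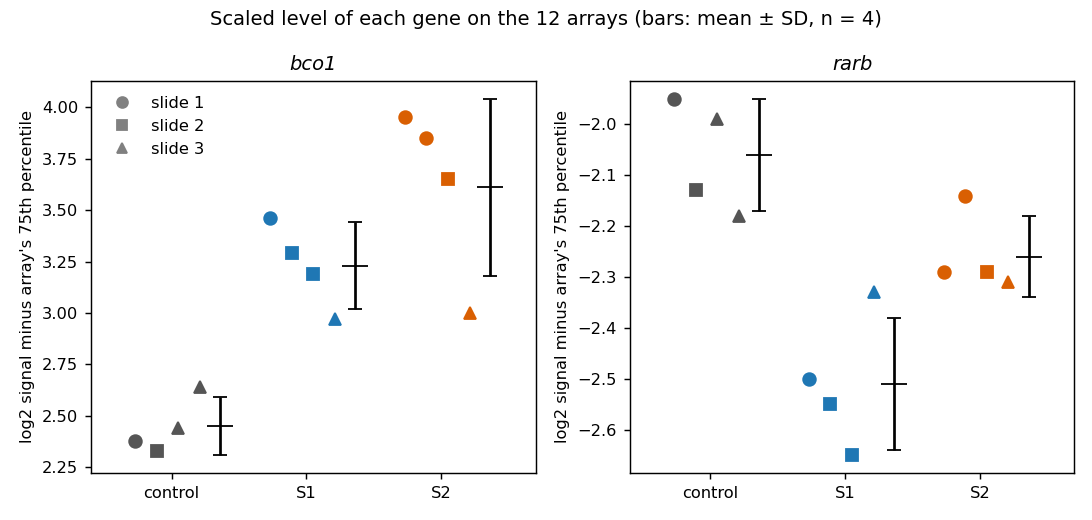
Scaled log2 signal (vertical axis) of bco1 and rarb on each of the 12 arrays, by group, with the marker shape giving the slide and the bar giving the mean ± SD of 4 arrays. bco1 lay between 2.33 and 2.64 in controls and at 2.97 or above on every exposed array, while rarb lay at -2.33 or below on S1 arrays and between -2.18 and -1.95 in controls.

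The order of the group means was thus control, S1, S2 from low to high for bco1, and S1, S2, control for rarb. For bco1 the neighbours S1 and S2 overlapped, and for rarb the neighbours S2 and control overlapped. Arrays that do not overlap are common in these data. Among all tested probes 10.6% separated all S1 arrays from all control arrays (5.61% higher and 4.95% lower in S1), and 15.9% separated S2 from control (7.55% higher and 8.3% lower). S2 was separated from S1 by 4.67% of probes (2.01% higher and 2.66% lower in S2). bco1 and rarb were picked on the first 2 of these comparisons, which also share their control arrays, so nothing is read from their being among such probes.

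Both genes were read from clear signals, but at very different brightness over their local background. All 24 spots of bco1 and all 24 spots of rarb were well above background, and none was marked as an outlier. The raw median brightness of bco1 spots ran from 2355 to 9912 over a local background of 20 to 29. That of rarb spots ran from 83 to 375.5 over a local background of 24 to 28, so its dimmest spot was 3.19 times its background.

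The spots of a probe gave a measure of technical error within an array. The gap between the spots of bco1 had a median of 0.05 on the log2 scale and was at most 0.17, on S1-2. For rarb the median gap was 0.16 and the largest was 0.60, on C-1, where the spots read 207 and 315. On all 12 arrays the same one of the rarb spots, called b here, was the brighter. Taken alone, spot a of rarb gave log2 differences of -0.40 in S1 and -0.11 in S2 from control, and spot b gave -0.50 and -0.29. Both spots kept the S1 arrays below all control arrays, and spot b alone did so for S2 as well. For bco1 the spots gave 0.79 and 0.77 in S1 and 1.18 and 1.15 in S2.

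Before scaling, the genes behaved differently. The processed intensity of bco1, averaged over its spots, was 5117, 4241, 3026 and 3120 on C-1 to C-4. It was 5925, 4617, 3861 and 2039 on S1-1 to S1-4, and 7983, 6954, 8475 and 4376 on S2-1 to S2-4. Unscaled, the S1 arrays thus overlapped the controls, and S1-4 was the dimmest of the 12. The unscaled log2 intensity of bco1 averaged 11.88 ± 0.36 over the controls, 11.90 ± 0.66 over S1 and 12.72 ± 0.43 over S2 (SD, n = 4 each), so its difference in S1 was 0.02 without scaling against 0.78 with it.

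The processed intensity of rarb was 261, 194, 141 and 111 on C-1 to C-4. It was 96, 81, 67 and 52 on S1-1 to S1-4, and 106, 109, 138 and 110 on S2-1 to S2-4. The S1 arrays lay below all control arrays already before scaling, with S1-1 at 96 nearest to C-4 at 111, and the S2 arrays overlapped the controls. The group means of the unscaled log2 intensity differed by -1.21 in S1. Array brightness moved with the groups, and its part in either result was not tested beyond a fit that carries it as a covariate. In that fit the differences in S1 and S2 were 0.70 ± 0.30 and 1.13 ± 0.23 for bco1 (SE). For rarb they were -0.50 ± 0.15 and -0.23 ± 0.12. These SEs are wider than those of the fit without brightness, which were 0.19 for bco1 and 0.10 for rarb.

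**Figure D2:**
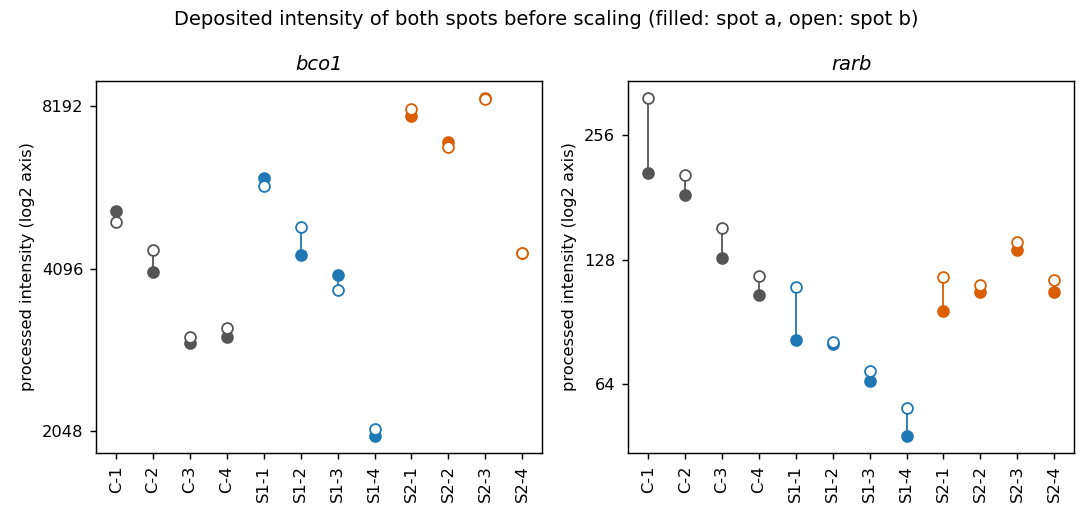
Deposited processed intensity (vertical log2 axis) of both spots of each gene on every array before any scaling, with spot a filled and spot b open. The S1 arrays of bco1 overlap the control arrays, and the open rarb spot is the higher on all 12 arrays. Averaged over its spots, rarb lies lower on all S1 arrays than on all control arrays, as does the mean brightness of the arrays.

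The differences kept their sign within each slide, and bco1 differed less on slide 3 than on the others. On slide 1 the bco1 signal was higher than in control by 1.09 in S1 and by 1.52 in S2 on the log2 scale. On slide 2 it was higher by 0.91 and 1.32. On slide 3 the same differences were 0.43 and 0.45, from single exposed arrays against the mean of C-3 and C-4. Without slide 3 the difference of bco1 was 0.96 in S1 and 1.47 in S2. S1-4 and S2-4, the only exposed arrays on that slide, thus gave the lowest level of bco1 in their groups.

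For rarb the within-slide differences in S1 were -0.56, -0.48 and -0.25 on slides 1, 2 and 3, and those in S2 were -0.27, -0.17 and -0.23. The S2 array or arrays stood above the S1 array or arrays by 0.28 on slide 1 and by 0.31 on slide 2. On slide 3 they differed by 0.02. The gap between the mixtures in bco1 was also smallest there, at 0.03 against 0.44 and 0.41. Slide 3 therefore gave almost no difference between the mixtures for either gene, from 1 array of each. With slide as a block in the fit, the differences were 0.74 and 1.07 for bco1 and -0.43 and -0.21 for rarb.

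**Figure D3:**
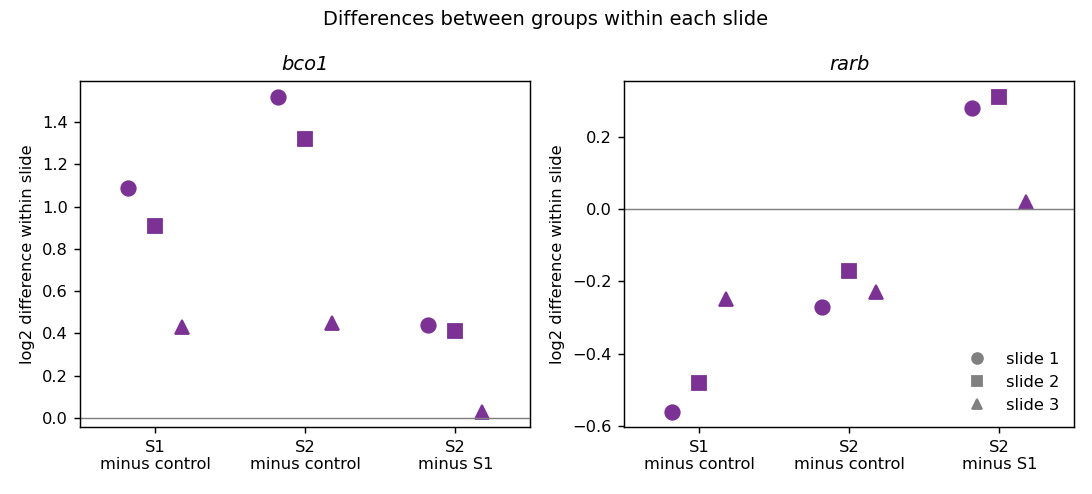
Log2 differences between groups (vertical axis) computed within each of the 3 slides, for bco1 and rarb, with the marker shape giving the slide. The bco1 differences from control on slide 3 (0.43 and 0.45) are under those of slides 1 and 2 (0.91 to 1.52), and all points keep the sign of their comparison.

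The authors' deposited log2 table gave the same order of groups. In it bco1 averaged 11.56 ± 0.15 over the controls, 12.30 ± 0.17 over S1 and 12.63 ± 0.41 over S2 (SD, n = 4 each). rarb averaged 6.99 ± 0.13, 6.55 ± 0.10 and 6.85 ± 0.11. The S1 arrays of rarb, at 6.41 to 6.64, again lay below the controls at 6.86 to 7.16. The value of rarb also moved with the background correction. With normexp and outlying local backgrounds replaced, rarb stood at -0.25 in S1 and -0.05 in S2, and with the backgrounds as measured it stood at -0.10 and -0.02. Normexp here adds an offset of 50 to the corrected signal, which is close to the level of the dimmest rarb spots. No rarb spot had an outlying local background itself, and the part of the offset in these values was not tested. bco1 stood at 0.67 to 0.70 in S1 and 0.98 to 1.02 in S2 under those corrections.

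The levels of bco1 and rarb over the 12 arrays had a Pearson correlation of -0.49, which fell to -0.06 once each group's mean was taken out. The arrays share their scaling and their brightness, so this describes the arrays only. Array brightness itself had a correlation of -0.48 with bco1 and 0.60 with rarb over the 12 arrays, and of -0.11 and -0.20 with the group means taken out.

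Other genes of the retinoid pathway were listed by role, with 87 genes beside bco1 and rarb, and 17 of them had a tested probe that matched a symbol. The others were not analysed here, among them bco2, rbp4, rdh10, dhrs3, aldh1a1, the retinoic acid hydroxylase genes cyp26a1, cyp26b1 and cyp26c1, crabp1, crabp2, rxra and rxrb. The probe of stra6, the membrane receptor for retinol-binding protein, was too dim to be tested. A gene was called changed at a limma adjusted p under 0.05 over all 29168 tested probes. In S1 against control 1 of the 17 fell and none rose, which is 5.88% against 2.1% of all tested probes (1.4% higher and 0.703% lower). In S2 against control 2 rose and 1 fell, which is 17.6% against 5.06% of all tested probes (2.43% higher and 2.63% lower). The list was chosen with earlier results of these data known, so nothing is read from these shares. The median log2 difference of the 17 was -0.11 in S1 and -0.04 in S2, beside -0.02 and -0.04 over all tested probes. In S2 against control the called probes were 48.1% higher ones, a share that became 59.7% when arrays were scaled to their median.

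Of the 5 other listed genes of carotenoid handling 2 were measured, and 1 of them rose in S2. scarb1, which encodes a receptor that takes up high-density lipoprotein and carotenoids, had scaled log2 levels of -0.02, -0.16, -0.03 and -0.15 in controls, 0.11, 0.05, -0.08 and 0.09 in S1 and 0.41, 0.19, 0.12 and 0.38 in S2. All S2 arrays lay above all control and all S1 arrays. scarb1 rose by 0.36 ± 0.10 in S2 (limma adjusted p = 0.049, ± SE from the fit to 4 arrays a group) and stood at 0.13 ± 0.10 in S1 (adjusted p = 0.534). The S2 call is marginal, since it held under 8 of 28 alternative settings and under none of the 12 that leave out an array (adjusted p from 0.0196 to 0.246 over the 28). bco2l, listed beside the carotenoid oxygenase genes for its name, stood at -0.34 and -0.40 (adjusted p = 0.295 and 0.164).

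Of the 3 measured retinol-binding protein genes, rbp3 fell with both mixtures and rbp2 and rbp5 did not pass. rbp3, which encodes the retinoid carrier between photoreceptors and pigment epithelium of the eye, had scaled log2 levels of 0.70, 0.68, 0.67 and 0.77 in controls, 0.23, 0.29, 0.10 and 0.26 in S1 and -0.02, 0.08, -0.04 and 0.23 in S2. All exposed arrays lay below all controls. rbp3 fell by 0.48 ± 0.09 in S1 (limma adjusted p = 0.0175) and by 0.64 ± 0.09 in S2 (adjusted p = 0.00218). The S1 call held under 23 of 28 alternative settings. It ended when C-4 was left out (adjusted p = 0.0584) and when S1-3 was left out (adjusted p = 0.0624). It also ended with array brightness as a covariate (adjusted p = 0.211), with only the 2 groups compared (adjusted p = 0.0561) and without slide 3 (adjusted p = 0.109). The S2 call held under all 28.

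The cellular retinol-binding protein gene rbp5 stood at -0.47 ± 0.13 in S1 (limma adjusted p = 0.0931) and -0.49 ± 0.13 in S2 (adjusted p = 0.0556). It passed in S2 under 8 of 28 alternative settings, the authors' deposited table (adjusted p = 0.0459) and quantile normalization (adjusted p = 0.0438) among them, and in S1 under both forms of normexp (adjusted p = 0.0308 and 0.0265). Its controls, from 0.73 to 1.03, did not overlap the S1 arrays, from 0.02 to 0.52, or the S2 arrays, from 0.16 to 0.52. rbp2, which encodes the retinol-binding protein of the intestine in mammals, stood at 0.25 ± 0.18 in S1 and 0.55 ± 0.18 in S2 (adjusted p = 0.514 and 0.0964).

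Of the 2 measured genes of retinol and retinal interconversion, adh7 rose in S2. adh7, which encodes a class of alcohol dehydrogenase that acts on retinol in mammals, had scaled log2 levels of -0.21, -0.65, -0.77 and -0.29 in controls. Its levels were 0.65, 0.21, 0.39 and -0.33 in S1 and 0.55, 0.35, 0.57 and 0.56 in S2. The S2 arrays lay close together above all controls, and S1-4 alone of the S1 arrays fell within the control range. The difference was 0.98 ± 0.19 in S2 (limma adjusted p = 0.0164) and 0.71 ± 0.19 in S1 (adjusted p = 0.0833). The S2 call held under 25 of 28 alternative settings. It ended without C-3 (adjusted p = 0.0519), without S2-1 (adjusted p = 0.0536) and without slide 3 (adjusted p = 0.0712). In S1 the gene passed under 3 of 28. These were without S1-4 (0.89, adjusted p = 0.0186), with array weights (adjusted p = 0.0351) and without C-3, S1-4 and S2-4 (adjusted p = 0.0481). dhrs7, on a probe that may cross-hybridise, stood at -0.19 and -0.26 (adjusted p = 0.68 and 0.47).

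None of the 3 measured genes for retinaldehyde dehydrogenases passed. aldh1a3, which encodes a retinoic acid-forming enzyme of the eye, stood at -0.36 ± 0.19 in S1 and -0.42 ± 0.19 in S2 (limma adjusted p = 0.378 and 0.236). aldh8a1 stood at -0.25 and 0.11 (adjusted p = 0.651 and 0.82). The probe of aldh1a2, the main retinoic acid-forming enzyme of the trunk, may cross-hybridise and was well above background on only 5 of 12 arrays. Its control levels ran from -8.26 to -3.16, so no difference was detectable at this signal (-0.19 ± 0.85 in S1 and -0.43 ± 0.85 in S2).

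Among the receptor genes, the S1 arrays of rarb, which was picked for this, lay apart from controls, and those of the 3 others measured overlapped them. Of all tested probes only 10.6% separated S1 from control and 15.9% separated S2 from control, so nothing is read from this contrast. rara had scaled log2 levels of -1.88 to -1.44 in controls, -2.33 to -1.32 in S1 and -2.04 to -1.33 in S2, which overlapped throughout. Its differences were -0.14 ± 0.21 and 0.01 ± 0.21 (limma adjusted p = 0.815 and 0.983). rarg, on a probe that may cross-hybridise, stood at 0.21 ± 0.13 and 0.02 ± 0.13 (adjusted p = 0.447 and 0.94). rxrg, a gene for the partner receptor, stood at 0.04 ± 0.26 in S1 and -0.50 ± 0.26 in S2 (adjusted p = 0.965 and 0.287). Its 4 S2 arrays, from -2.77 to -2.47, lay below the controls, from -2.27 to -1.96, whereas the S1 arrays spread from -2.72 to -1.14. The differences among receptor genes were not tested.

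Genes that respond to retinoic acid in embryos were represented by hoxd3 and, on a probe that may cross-hybridise, hoxb1, and neither passed. hoxd3, a homeobox gene of the hindbrain and trunk, stood at -0.11 ± 0.10 in S1 and -0.07 ± 0.10 in S2 (limma adjusted p = 0.612 and 0.726). hoxb1 stood at -0.01 ± 0.14 and 0.06 ± 0.14 (adjusted p = 0.986 and 0.847). In S2 against S1 none of the 17 genes passed, as none of the 29168 tested probes did (0%). Of all tested probes 2142 had an unadjusted limma p under 0.05 in that comparison, beside 5006 in S1 and 6242 in S2 against control. Some probes pass that threshold by chance alone, so no difference between the mixtures is read from this count.

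**Figure D4:**
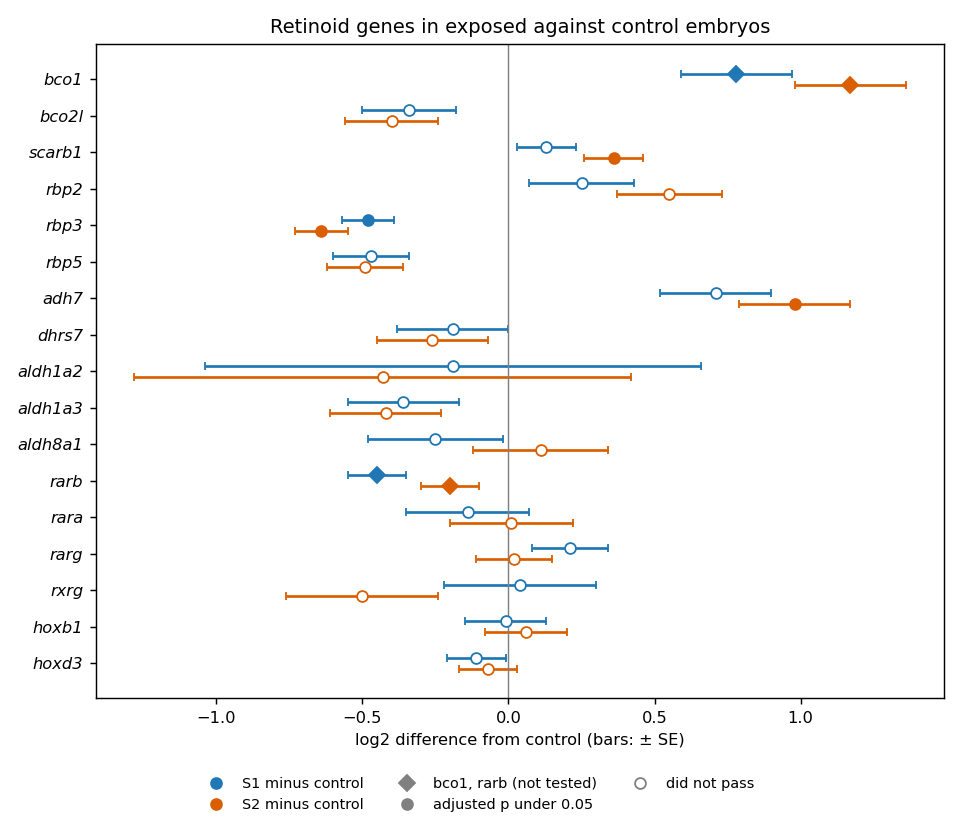
Log2 difference from control (horizontal axis, bars ± SE) of bco1, rarb and 15 of the 17 other measured retinoid genes in S1 and S2, in order of their roles, with filled circles for an adjusted p under 0.05 and diamonds for bco1 and rarb, which were not tested. bco1 (0.78 and 1.17) and adh7 (0.71 and 0.98) lie farthest to the right, and rbp3 (-0.48 and -0.64) is the gene with a filled circle in both comparisons.

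Whole embryos mix all tissues, so fewer cells of a type and less RNA per cell cannot be told apart in these data. Markers of tissues known to handle retinoids were read beside the genes. Of 12 liver markers 7 were measured, and of these 2 rose in S1 and 3 in S2, namely kng1 (0.78 and 0.86) and plg (0.65 and 0.82) in both and apob in S2 (0.73, limma adjusted p = 0.0348). That is 28.6% and 42.9% of the 7, beside 2.1% and 5.06% of all tested probes. The marker lists were chosen with earlier results of these data known, so nothing is read from these shares. The S1 calls of kng1 (adjusted p = 0.0481) and plg (adjusted p = 0.0456) are marginal. Marker calls were not tried under the alternative settings. The fibrinogen genes fga and fgg, on probes that may cross-hybridise, stood at -0.26 and -0.31 in S1 and at -0.19 and 0.03 in S2, and serpina1 at 0.11 and 0.26, none of which passed. alb, the albumin gene, on a probe that may cross-hybridise, stood at 0.06 and -0.25. The mean scaled log2 level of the 7 ran from 0.72 to 1.05 in controls, from 1.01 to 1.12 in S1 and from 1.11 to 1.26 in S2. In mammals the intestine is a main site of BCO1, but of 10 intestine markers only pdx1, which also marks the pancreas, was measured, at -0.80 and -0.30 (adjusted p = 0.132 and 0.527). The level of pdx1 ran from -4.66 to -3.36 in controls, from -5.32 to -4.82 in S1 and from -4.89 to -4.35 in S2. Its probe was dim, and well above background on 11 of 12 arrays and on 3 of the 4 S1 arrays. The part of tissue makeup in the bco1 difference was not tested.

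For the eye, 2 of 11 photoreceptor markers were measured, pde6c and, on a probe that may cross-hybridise, rho, and neither passed. pde6c stood at -0.10 and -0.22, and rho at 0.00 and -0.25. Their mean level ran from -1.28 to -0.94 in controls, from -1.18 to -1.04 in S1 and from -1.53 to -1.12 in S2. Of 9 listed pigment epithelium markers 2 were measured, mlana and pmel, both on probes that may cross-hybridise. Both also mark pigment cells outside the eye. mlana stood at -0.42 in S1 (limma adjusted p = 0.108) and fell by 0.49 in S2 (adjusted p = 0.0442), and pmel stood at -0.36 and -0.45. The mean level of these 2 genes ran from 0.35 to 0.44 in controls, from -0.21 to 0.19 in S1 and from -0.25 to 0.12 in S2. The part of tissue makeup in the fall of rbp3 was not tested. Of 9 hindbrain and neural tube markers hoxb1 and sox2 were measured, both on probes that may cross-hybridise, and sox2 stood at -0.15 and -0.19 (adjusted p = 0.587 and 0.397). Their mean level ran from 1.06 to 1.28 in controls, from 0.83 to 1.39 in S1 and from 1.06 to 1.15 in S2. The blood gene slc4a1, the 1 measured of 8, stood at -0.04 in both comparisons, and none of the listed muscle markers was measured.

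The genes with the profile most like bco1 over the 12 arrays were looked up among 4371 named genes. They were prr14 (Pearson r = 0.94), sema4c, faah2 and entpd5 (each r = 0.93) and arsa.2 (r = 0.92), all on specific probes. These encode a nuclear protein, a semaphorin, a fatty acid amide hydrolase, a nucleotide diphosphatase and an arylsulfatase. With group means taken out the correlations were 0.79, 0.67, 0.74, 0.61 and 0.72. entpd5 stood at 0.72 in S1 and 1.21 in S2, which are of the size of bco1. arsa.2 had larger differences than bco1, at 1.24 and 1.53, and prr14 smaller ones, at 0.26 and 0.33. The median correlation with bco1 over all 4371 genes was -0.14, and 74 genes had one over 0.8.

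For rarb the most alike genes were gpr149 (r = 0.94), prkg1 (r = 0.90), and bbs7, agap2 and lrrc27 (each r = 0.88), with bbs7 on a probe that may cross-hybridise. gpr149 encodes an orphan receptor, prkg1 a kinase that cyclic GMP activates, and bbs7 a subunit of a complex that sorts proteins into cilia. With group means taken out the correlations were 0.87, 0.57, 0.60, 0.55 and 0.65. prkg1 and bbs7 had differences close to those of rarb, at -0.47 and -0.46 in S1 and -0.20 and -0.19 in S2, while gpr149 stood at -0.22 and -0.14. Only 23 genes had a correlation with rarb over 0.8. These profiles share arrays, scaling and the group differences, and are a description without a test.

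**Figure D5:**
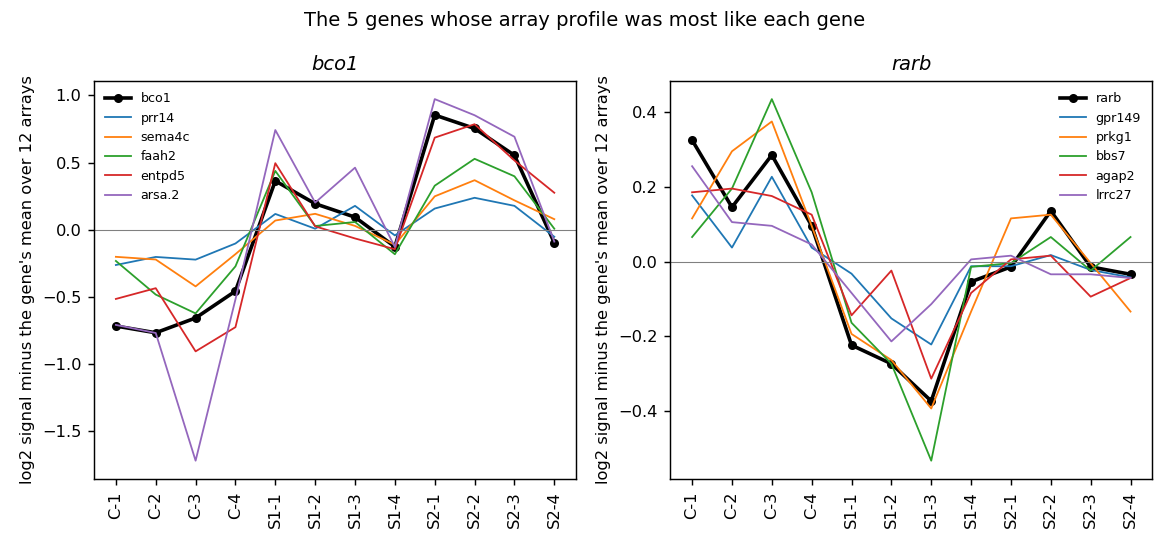
Scaled log2 signal minus each gene's own mean over the 12 arrays (vertical axis) for bco1 and rarb in black and for the 5 genes most alike to each in colour. The genes alike to bco1 are low on control arrays and high on S2-1 to S2-3. Each gene alike to rarb has its lowest value on S1-2 or S1-3, while S1-4 is close to the S2 arrays.

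Neighbours on the RefSeq assembly UCB_Xtro_10.0 were also read, as the 3 protein-coding genes on each side of bco1 and of rarb. This choice was made after values were seen. Next but one to bco1, cmip, on a probe that may cross-hybridise, stood at 0.42 ± 0.13 in S1 and 0.18 ± 0.13 in S2 (limma adjusted p = 0.118 and 0.46). Beside rarb, the topoisomerase gene top2b stood at -0.29 ± 0.20 and -0.13 ± 0.20 (adjusted p = 0.512 and 0.762) and ngly1 at 0.06 ± 0.12 and 0.15 ± 0.12 (adjusted p = 0.88 and 0.536). None of these 3 passed, and the remaining neighbours were not analysed here.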

How the data were processed

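RNA of 12 whole-embryo samples was labelled with Cy3 and hybridised to 1 array each, per the labels' protocols. Per the file headers, Agilent Feature Extraction 11.0.1.1 read the authors' scans. What was deposited is a processed signal, an intensity on a linear scale, and the array design names build JGI 4.1. The authors' deposited value table is in log2 units. Its columns equal the log2 processed signals after quantile normalization, to within 0.00126, and share the median 6.80. The sources used here name no tool for it.

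From the deposited intensity, log2 minus each array's 75th percentile was taken over non-control spots. Outlier spots (295 in all) were left out unless every spot of a probe was marked, and no spot was saturated. Where a probe had more than 1 spot, its spots were averaged. A filter kept the 29168 of 32899 probes that stood well above background on 4 or more of the 12 arrays. These entered 1 limma 3.58.1 fit (R 4.3.3) over the 3 groups, with Benjamini-Hochberg adjustment over all of them, after a check on simulated data. Accessions were paired with symbols through a RefSeq table of UCB_Xtro_10.0, whose build differs from that of the array, so no coordinates are given. The table matched 4594 of the tested probes to 4372 symbols. For a gene with several probes the brightest stood for it. A probe named xhyb is read as one that may cross-hybridise.

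bco1, rarb, the pathway and marker lists and the naming rule were chosen with earlier results of these data known. The rule named every list gene that passed, a fixed set of pathway genes, the 2 genes per role with the smallest p, and the 5 genes most alike to bco1 and to rarb. Some measured list genes enter the counts but are not reported here by name. The files hold a median and no mean raw signal, so normexp used the median signal. Alternatives covered scaling, background correction, the filter, blocks, array weights, brightness and left-out arrays. The number of arrays limits the precision. Figures used matplotlib 3.10.9 in Python 3.11.15.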

Additional observations from a re-analysis of the deposited data

Results flagged for a closer look

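Among 57 groups of 4 arrays (the 19 retinoid genes measured, bco1 and rarb included, in 3 groups each), 5 had an array far from the others of its group by Dixon's criterion, which chance alone gives in about 1 of 20 groups. For rarb, S2-2 stood at -2.14 against -2.31 to -2.29 on the other S2 arrays. For rbp5, C-2 stood at 1.03 against 0.73 to 0.74 on the other control arrays. For adh7, S2-2 stood at 0.35 against 0.55 to 0.57. For bco2l, C-3 stood at -3.93 against -4.02 to -4.01. For aldh1a2, whose probe was mostly not well above background, S2-4 stood at -5.63 against -5.97 to -5.92.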

How the results depend on the processing

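bco1 and rarb kept the sign of all 6 differences under all 29 alternatives, but several of these could not change a difference. Such were the other filters on dim probes, outlier spots kept, the mean over a gene's probes, and the replicate number as a block. Comparing only 2 groups, or leaving out an array of a group not compared, could not change a difference either. Most values moved by less than the spread between arrays. The exceptions came with no scaling between arrays (bco1 0.02 in S1, 0.83 in S2 and 0.82 for S2 against S1, and rarb -1.21, -0.53 and 0.68), with normexp on measured backgrounds (rarb -0.10, -0.02 and 0.08), with normexp and outlying backgrounds replaced (rarb -0.25 in S1 and -0.05 in S2) and without slide 3 (bco1 1.47 in S2). No scaling and leaving out slide 3 were chosen after seeing the data. Leaving out 1 array at a time, bco1 ranged from 0.70 to 0.87 in S1, from 1.05 to 1.37 in S2 and from 0.27 to 0.59 for S2 against S1, and rarb from -0.51 to -0.40, from -0.24 to -0.16 and from 0.20 to 0.31.

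Called probes numbered 612 for S1 and 1476 for S2, each against control, and 0 between the mixtures. With brightness as a covariate the first 2 were 104 and 732, at an adjusted p under 0.1 they were 1382 and 2845, and without slide 3 they were 204 and 215. The S1 count was 288 with only the 2 groups compared, and the S2 count was 4026 with array weights. For S2 against S1 the count was 1 with median scaling, 2 with probes well above background on all 12 arrays and 2 at an adjusted p under 0.1. Leaving out 1 array gave 277 to 744, 482 to 1673 and 0 to 1.

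Of the 17 retinoid genes 1 passed in S1 and 3 in S2. In S1 the count was 2 with either form of normexp, with array weights and without C-3, S1-4 and S2-4, 0 with brightness as a covariate, with only the 2 groups compared and without slide 3, and 3 at an adjusted p under 0.1. In S2 it was 7 with array weights, 5 at an adjusted p under 0.1 and 1 without slide 3. Leaving out 1 array gave 0 to 2 in S1 and 1 to 3 in S2. The causes were not tested. The labels do not say that a replicate number marks a shared source, and 8 of 12 same-numbered pairs, not all, had deviations correlated over 0.1 (from -0.03 to 0.36), so the numbers were not taken to pair the arrays. As a hint of shared structure, 8 of 12 arrays correlated best with an array of their own number, and 8 of the 12 pairs also shared a slide. With the replicate number as a block, 420, 1100 and 0 probes and 1, 2 and 0 retinoid genes passed. In that fit scarb1 lost its call in S2 (limma adjusted p = 0.0696). Each number occurs on 1 array of every group, so this block cannot change a difference of group means. The values of bco1 (0.78, 1.17 and 0.39) and rarb (-0.45, -0.20 and 0.25) were thus those of the fit without it.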
